A study of Mus musculus with 7 samples.

Results

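The genes described here are 10 imprinted genes that act on growth, chosen by name from the 37620 genes counted in each tumour: Mest, Peg10, Peg3, Igf2, H19, Dlk1, Meg3, Cdkn1c, Plagl1 and Grb10. All 10 were in the count tables and all 10 passed the filter on low counts, as did 16068 genes in all. RNA came from 7 tumours grown in the brains of nude mice, which lack a thymus, into which lines of glioblastoma stem-like mouse cells had been placed. The lines go back to subventricular zone neural stem cells and were kept for 10 to 15 passages first. Values of single tumours are given in replicate order, 1 to 4 for GSC1 and 1 to 3 for GSC2. GSC1 (4 tumours) has the mutation label lgT/Ras, and GSC2 (3 tumours) has the label shp53, Nf1-/-, CDK4. Each label belongs to 1 line, so genotype and line cannot be told apart, and the labels give no host age and no separate cultures behind the tumours. The libraries held 18643155 to 32643408 reads counted on genes.

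An imprinted gene is expressed mainly from the copy inherited from 1 parent, because DNA methylation set in the germ line marks a control region near it. Imprinted genes lie in clusters, and many paternally expressed ones promote fetal growth while many maternally expressed ones restrain it. In the brain several stay active in neurons, in the choroid plexus and in the meninges, the membranes around the brain. Neural stem cells use some of them too. The read counts carry no information on which parental copy was transcribed.

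In GSC2 tumours Mest was 7.0 times and Peg10 2.43 times as high as in GSC1 tumours, and H19 was 3.14 times as high in GSC1 as in GSC2, as ratios of mean CPM. The means were 57.4 ± 18.1 CPM in GSC1 and 402 ± 134 CPM in GSC2 for Mest, 37.7 ± 6.52 and 91.5 ± 36 for Peg10, and 56.5 ± 21.0 and 18 ± 7.06 for H19 (SD, n = 4 and n = 3). CPM is the read count relative to library size, scaled by the trimmed mean of M values. These were the 3 of 10 genes whose values did not overlap between the lines, where 5.58% of all genes tested did not overlap, 3.05% with GSC2 higher and 2.53% with GSC1 higher. The other 7 overlapped. None of the 10 passed edgeR's quasi-likelihood test after Benjamini-Hochberg adjustment over all 16068 genes, where 0% of genes passed, and 3 of the 10 had an unadjusted p under 0.05, where 4.21% of all genes did. DESeq2 called the same 3 genes, Mest, Peg10 and H19, where it called 1.2% of genes, 0.55% higher in GSC2 and 0.65% higher in GSC1. Limma-voom called 0 of the 10, where it called 0.00622% of genes. The 10 genes were chosen with earlier results of these data known, so these counts describe them and are no test of the group. Log2 fold changes (GSC2 minus GSC1) were positive for 4 and negative for 6, with a median of -0.11 beside -0.03 over all genes tested. Whole tumours can hold host cells, and fewer cells of a type and less RNA per cell cannot be told apart.

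**Figure D1:**
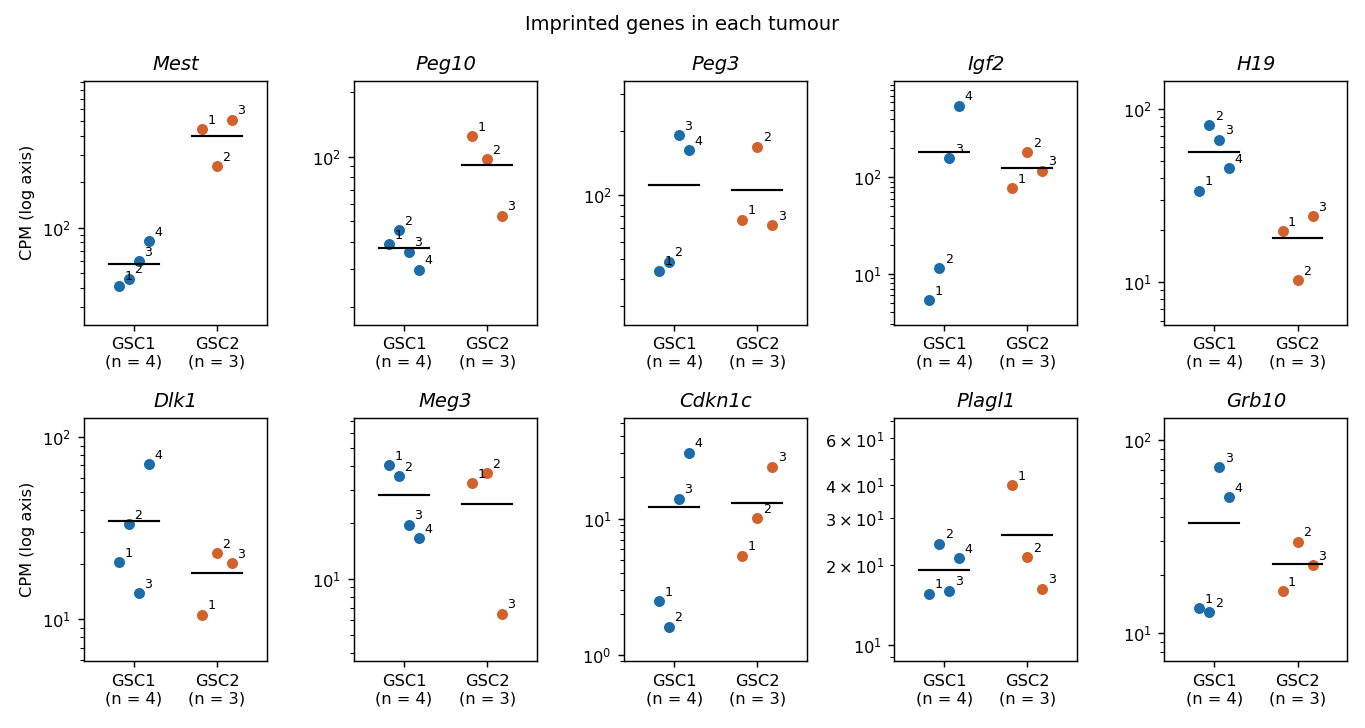
CPM of each gene in the 7 tumours, on a log axis. Points are tumours with their replicate number, blue for GSC1 and orange for GSC2, and lines are group means. Only for Mest, Peg10 and H19 do the points of the lines not overlap.

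Several scores of the same tumours are set beside the genes below. A brain score averages the log2 CPM of listed neuron and mature oligodendrocyte genes. It was 6.36, 5.07, 8.69 and 7.97 across GSC1 tumours and 6.48, 7.88 and 7.77 across GSC2 tumours. A score over 14 fibroblast and meninges genes, all 14 tested and none at 0 in any tumour, was 3.43, 3.34, 5.92 and 6.20 across GSC1 and 4.07, 4.77 and 4.98 across GSC2, and their summed level was 553 to 2825 CPM in GSC1 and 591 to 866 CPM in GSC2. The score over 11 choroid plexus and ependyma genes was -0.22, -0.56, 1.49 and 6.45 across GSC1 and 4.16, 4.92 and 6.01 across GSC2. Their summed level was 89.9 to 9158 CPM in GSC1 and 2211 to 5147 CPM in GSC2, and Folr1, Kcne2 and Slc4a5 were at 0 in at least 1 tumour. GSC1 replicates 1 and 2 were therefore the 2 tumours lowest in all of these scores. A length slope sets long transcripts (8000 bases or more) against short ones (2000 bases or fewer) by their median log2 deviations. It was below 0 in 3 tumours, called short-biased libraries here: in GSC1 at -0.40 for replicate 3 and -0.35 for replicate 4, in GSC2 at -0.69 for replicate 3. It lay between 0.02 and 0.64 in the other 4. Leaving out the short-biased libraries keeps replicates 1 and 2 of each line. In GSC1 these are the 2 tumours lowest in the brain, fibroblast and choroid plexus scores, so such a fit changes tissue content as well as length bias. Of 10 neural stem and progenitor genes all 10 were tested and none was at 0, with a summed level of 2187 to 4824 CPM in GSC1 and 3317 to 4119 CPM in GSC2.

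Mest encodes a protein of the alpha/beta-hydrolase fold family and is expressed from the paternal copy. Its level was 41.4, 46.2, 60.1 and 81.7 CPM for GSC1, with GSC2 at 442, 252 and 511 CPM. Every GSC2 tumour was above every GSC1 tumour, and the lowest GSC2 value was the one of replicate 2. By edgeR's quasi-likelihood test the log2 fold change was 2.81 with an SE of 0.35 (unadjusted p = 6.68e-05, adjusted p = 0.231), and 4 was its rank by p among the 16068 genes. An exact two-sided permutation test of mean log2 CPM over all 35 splits gave p = 0.0286, the smallest it can give, unadjusted. With the brain score as a covariate, where 0.822% of genes passed (0.573% with GSC2 higher), Mest passed in edgeR at 2.79 with an SE of 0.30 (adjusted p = 0.0169). It also passed without the 3 short-biased libraries, where 0.348% passed in edgeR (0.19% with GSC2 higher), at 2.97 with an SE of 0.32 (adjusted p = 0.0283). That fit set 2 tumours against 2, with the GSC1 tumours lowest in the brain score. Over all 17 alternative fits the fold stayed between 2.59 and 3.05 with an adjusted p between 2.38e-09 and 1.00.

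Mest lies on chromosome 6, where 912 bases of its exons overlap exons of Copg2 on the opposite strand in the GENCODE M21 annotation. Copg2, a coat protein complex gene, was at 60.8, 55.8, 91.8 and 74.0 CPM across GSC1, against 72.9, 75.6 and 72.1 CPM across GSC2 (log2 fold change 0.06, SE 0.23). The level of Copg2 overlapped between the lines while that of Mest did not. Reads of the shared bases cannot be assigned without the strand setting, which is not given in the sources used here.

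Mest has transcription starts some distance apart, and counts per gene add them up, so windows at 2 of them are shown (RefSeq, GRCm38.p6, 250 bases before to 50 after the start, plus strand). Capitals mark matches to TGCCGC or its reverse complement GCGGCA, the hexamer that ZFP57, a zinc finger protein that keeps methylation at imprinted control regions, is known to bind when methylated. The upstream window at chr6:30733256-30733555 has 8 CG dinucleotides and no match, and the downstream window at chr6:30737800-30738099 has 17 and 2 matches. Another RefSeq window starts 3 bases further on and was not printed.
Mest upstream: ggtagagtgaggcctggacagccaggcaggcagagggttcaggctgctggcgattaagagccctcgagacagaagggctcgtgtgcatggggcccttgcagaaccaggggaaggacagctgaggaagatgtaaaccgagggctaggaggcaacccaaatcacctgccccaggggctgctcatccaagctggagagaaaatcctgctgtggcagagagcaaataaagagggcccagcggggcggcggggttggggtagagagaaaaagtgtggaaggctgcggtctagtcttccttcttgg
Mest downstream: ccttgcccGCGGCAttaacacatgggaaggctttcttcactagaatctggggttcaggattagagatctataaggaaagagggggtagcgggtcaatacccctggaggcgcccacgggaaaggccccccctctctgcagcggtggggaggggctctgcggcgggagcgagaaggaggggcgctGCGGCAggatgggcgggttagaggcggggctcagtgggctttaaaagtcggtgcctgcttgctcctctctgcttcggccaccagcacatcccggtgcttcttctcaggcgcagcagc
Among 32851 windows of 300 bases in the RefSeq table the median was 7 CG dinucleotides, and 11.6% held the hexamer on either strand. Windows were given for 7 of the 10 genes, 14 windows in all, of which 6 held it, counting both overlapping downstream windows of Mest. The hexamer itself holds a CG, and these 6 had more CG dinucleotides than the median. The shares were not matched for CG content. A match describes these letters only.

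Peg10, a paternally expressed gene derived from a retrotransposon, is needed in the placenta and lies on the same chromosome. It was at 39.2, 45.5, 36.1 and 29.9 CPM for GSC1, with GSC2 at 124, 97.0 and 53.0 CPM. All GSC2 tumours were above all GSC1 tumours, with GSC2 replicate 3, a short-biased library, closest to them. EdgeR's quasi-likelihood test put the log2 fold change at 1.28 with an SE of 0.32 (unadjusted p = 0.00437, adjusted p = 0.635), and the exact two-sided permutation p was 0.0286. DESeq2 called it (1.25, SE 0.36, adjusted p = 0.0419). Within each line the short-biased libraries, also lowest in the mitosis score, were the lowest in Peg10, whose longest transcript has 6667 bases. The relation of Peg10 to the length slope did not pass (r = 0.591 with an exact permutation p of 0.181 and 0.407 after adjustment). Within lines r was 0.865 (exact permutation p of 0.0486, or 0.194 after adjustment). A fit with a length offset per library gave a log2 fold change of 1.11.

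Sgce, the epsilon-sarcoglycan gene that shares a control region with Peg10, was at 37.6, 36.3, 53.9 and 42.8 CPM across GSC1, against 29.7, 36.5 and 44.7 CPM across GSC2. Its values overlapped between the lines (log2 fold change -0.21, SE 0.25), in contrast to those of Peg10. Ppp1r9a, a neighbour that encodes the actin-binding protein neurabin 1, was at 56.8, 42.8, 53.3 and 54.0 CPM for GSC1, with GSC2 at 80.3, 86.5 and 43.6 CPM. GSC2 replicate 3 was the tumour that kept Ppp1r9a from separating the lines (0.44, SE 0.28).

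H19 is a maternally expressed long noncoding RNA that restrains growth and shares its control region with Igf2. It was at 33.7, 80.6, 66.4 and 45.4 CPM across GSC1, against 19.7, 10.2 and 24.0 CPM across GSC2. All GSC1 tumours lay above all GSC2 tumours. In edgeR's quasi-likelihood test the log2 fold change was -1.65 with an SE of 0.42 (unadjusted p = 0.00528, adjusted p = 0.676), and the exact two-sided permutation p was 0.0286. DESeq2 called it (-1.68, SE 0.45, adjusted p = 0.0215). It did not pass with the brain score as a covariate in edgeR (-1.62, SE 0.38, adjusted p = 0.0920). Mest and H19 went opposite ways, so the count of Mest over that of H19 was 1.23, 0.574, 0.906 and 1.8 across GSC1 and 22.4, 24.7 and 21.2 across GSC2. The pair was chosen after the values were seen.

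**Figure D2:**
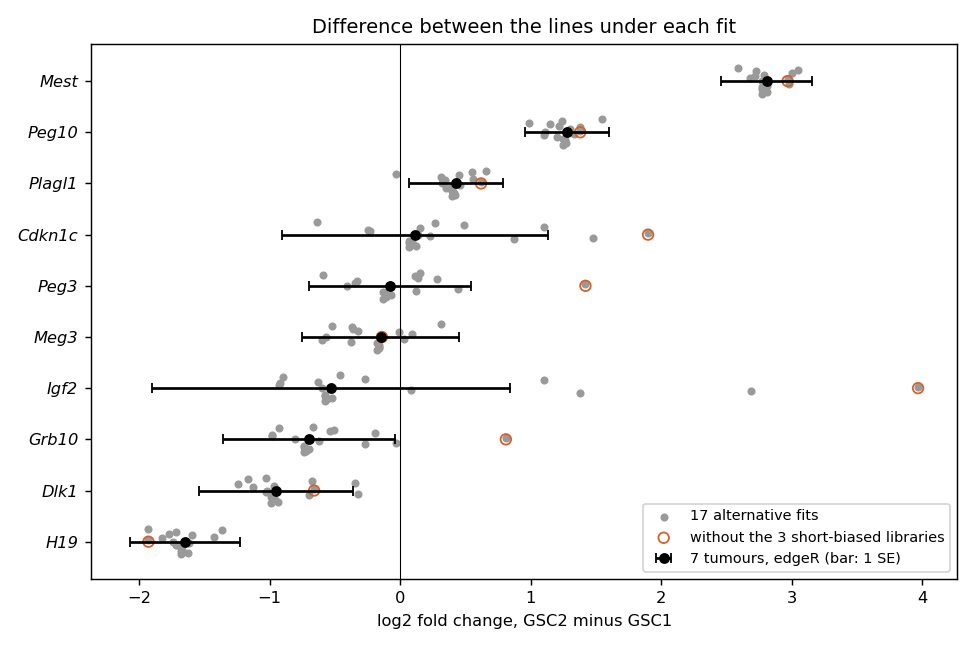
Log2 fold change of each gene, GSC2 minus GSC1. Black points are the edgeR fit over 7 tumours with bars of 1 SE, grey points the 17 alternative fits, and orange rings the fit without the 3 short-biased libraries. Mest stays between 2.59 and 3.05, while Igf2 spans -0.93 to 3.97.

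Igf2, the paternally expressed fetal growth factor that signals through the IGF1 receptor, varied most. It was at 5.36, 11.4, 157 and 549.6 CPM for GSC1, with GSC2 at 76.5, 183 and 117 CPM. GSC1 tumours held both the lowest and the highest values, a 103-fold range. Only 0.492% of genes tested had a wider range on the log2 scale. In the choroid plexus and the meninges Igf2 is known to be active, and the 2 tumours lowest in it were also the lowest in the scores of those tissues. The part of those tissues in the level of Igf2 was not tested.

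For Igf2 the sign of the difference between the lines depended on the method and on the tumours kept. With all 7 the log2 fold change was -0.53 with an SE of 1.37 (edgeR, adjusted p = 1.00), but 1.38 in limma-voom, 2.69 with a replicate block and 0.08 with the brain score in the fit. The difference of mean log2 CPM was 1.29. It was 1.10 without GSC1 replicate 4 and 3.97 without the 3 short-biased libraries (adjusted p = 0.0822). Igf2 moved with the fibroblast and meninges score over the 7 tumours (Pearson r = 0.9 with an exact permutation p of 0.00675 and 0.0429 after adjustment, Spearman rho = 0.857 with an exact permutation p of 0.0238 and 0.107 after adjustment). Leaving out the 2 tumours with the most extreme scores gave r = 0.802, and r for values centred within lines was 0.96 (exact permutation p of 0.0486, or 0.194 after adjustment). Against the brain score r was 0.792 (exact permutation p of 0.0337, or 0.11 after adjustment) and rho again 0.857, with r = 0.508 without the 2 farthest tumours. For the brain score r within lines was 0.791 (exact permutation p of 0.201, or 0.33 after adjustment). Both scores are lowest in the same 2 tumours. These are among 36 relations computed, of which 8 passed for Pearson's r, 3 for Spearman's rho and 0 within lines after adjustment over the 36. How many of all genes tested follow the scores was not computed, so these counts do not single out imprinted genes.

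The count of Igf2 over that of H19 was 0.159, 0.142, 2.36 and 12.1 across GSC1 and 3.88, 17.9 and 4.86 across GSC2. H19 exceeded Igf2 in 2 of the 7 tumours, GSC1 replicates 1 and 2. Across tumours r was -0.252 (exact permutation p of 0.58, or 0.794 after adjustment) and rho -0.179 (exact permutation p of 0.713, or 0.885 after adjustment), and r was 0.354 without the 2 tumours farthest from the median. Within lines r was -0.0032.

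**Figure D3:**
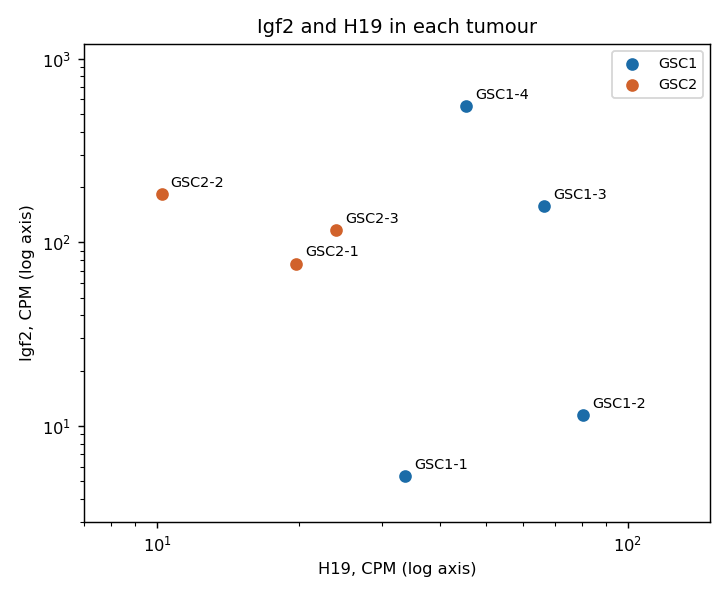
CPM of Igf2 against CPM of H19 in each tumour, both on log axes. The GSC2 tumours lie to the left, at 10.2 to 24.0 CPM of H19, and GSC1 replicates 1 and 2 at the bottom, at 5.36 and 11.4 CPM of Igf2.

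Grb10 encodes an adaptor that binds the insulin and IGF1 receptors and damps their signal. It is expressed from the maternal copy in most tissues and from the paternal copy in neurons. Its level was 13.5, 12.9, 72.4 and 50.5 CPM across GSC1, against 16.6, 29.8 and 22.6 CPM across GSC2. GSC1 replicates 3 and 4 were above all other tumours and GSC1 replicates 1 and 2 below them. The lines did not differ beyond this spread (log2 fold change -0.70, SE 0.66), and without the 3 short-biased libraries the fold was 0.81.

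The order of the 7 tumours by Grb10 was their order by brain score (Spearman rho = 1 with an exact permutation p of 0.000397 and 0.00714 after adjustment, Pearson r = 0.886 with an exact permutation p of 0.00714 and 0.0429 after adjustment). Leaving out the 2 tumours with the most extreme scores gave r = 0.881, and within lines r was 0.943 (exact permutation p of 0.0347, or 0.194 after adjustment). Grb10 also moved with the fibroblast and meninges score (r = 0.949 with an exact permutation p of 0.00218 and 0.0393 after adjustment, rho = 0.929 with an exact permutation p of 0.00675 and 0.0607 after adjustment, and r = 0.942 without the 2 farthest tumours). For that score r within lines was 0.958 (exact permutation p of 0.104, or 0.286 after adjustment). Ddc, the neighbouring gene for aromatic amino acid decarboxylase of monoamine neurons, was at 0.753, 0.478, 55.0 and 16.7 CPM for GSC1, with GSC2 at 1.07, 5.19 and 3.66 CPM. Its tumours had the same order as those of Grb10 (rho = 1 with an exact permutation p of 0.000397 and 0.00714 after adjustment, r = 0.994 with an exact permutation p of 0.000198 and 0.00714 after adjustment, and r = 0.982 without the 2 farthest). Within lines r was 0.995 (exact permutation p = 0.00694, the smallest 144 arrangements can give, adjusted p = 0.194). Dbh and Slc18a2, monoamine neuron genes not listed as neighbours, were also highest in GSC1 replicates 3 and 4. They were at 23.2 and 11.4 CPM for Dbh and 15.8 and 7.56 CPM for Slc18a2. In Slc6a4 and Tph2, also listed with monoamine neurons, these tumours were not the highest pair. The source of the shared order of Ddc and Grb10 was not tested.

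Grb10 too has starts that the gene count adds up, and windows at both are shown, read on the minus strand of GRCm38.p6 with the same capitals. The upstream window at chr11:12037371-12037670 has 45 CG dinucleotides, more than in 98.1% of all windows, and 1 match to the hexamer. The downstream window at chr11:12027922-12028221 has 9 and no match.
Grb10 upstream: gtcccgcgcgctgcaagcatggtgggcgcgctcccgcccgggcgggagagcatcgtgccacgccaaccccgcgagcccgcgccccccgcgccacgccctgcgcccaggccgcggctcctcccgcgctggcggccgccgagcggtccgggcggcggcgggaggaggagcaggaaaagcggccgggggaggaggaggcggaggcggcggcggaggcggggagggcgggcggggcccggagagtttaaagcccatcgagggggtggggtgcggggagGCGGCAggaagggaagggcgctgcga
Grb10 downstream: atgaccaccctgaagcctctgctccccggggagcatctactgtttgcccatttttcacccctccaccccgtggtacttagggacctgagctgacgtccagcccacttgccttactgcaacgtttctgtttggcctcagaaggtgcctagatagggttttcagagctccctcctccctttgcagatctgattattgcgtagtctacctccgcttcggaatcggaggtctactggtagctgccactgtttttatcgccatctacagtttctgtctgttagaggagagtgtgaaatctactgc
The counts do not show which start was used in which tumour.

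Cdkn1c, the maternally expressed gene for the cell cycle inhibitor p57, was at 2.49, 1.62, 14.0 and 30.4 CPM across GSC1, against 5.34, 10.1 and 23.9 CPM across GSC2. GSC1 again held the lowest and the highest tumours (log2 fold change 0.11, SE 1.02). Its fold ran from -0.64 without GSC2 replicate 3 to 1.90 without the 3 short-biased libraries. It moved with the fibroblast and meninges score (r = 0.917 with an exact permutation p of 0.00675 and 0.0429 after adjustment, rho = 0.964 with an exact permutation p of 0.00278 and 0.0333 after adjustment, and r = 0.835 without the 2 farthest tumours). Within lines r was 0.962 (exact permutation p of 0.0139, or 0.194 after adjustment). Against the brain score r was 0.876 (exact permutation p of 0.00893, or 0.0455 after adjustment) and rho 0.821 (exact permutation p of 0.0341, or 0.137 after adjustment), with r = 0.609 without the 2 farthest tumours. For the brain score r within lines was 0.875 (exact permutation p of 0.0694, or 0.25 after adjustment). Both scores moved with Cdkn1c, and their separate parts were not tested.

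Peg3, a paternally expressed zinc finger gene active in neurons and stem cells, was at 43.8, 48.5, 193 and 163 CPM for GSC1, with GSC2 at 76.4, 169 and 71.9 CPM. The high tumours were GSC1 replicates 3 and 4 and GSC2 replicate 2, the 3 with the highest brain scores. The lines did not differ beyond the spread (log2 fold change -0.08, SE 0.62), and the fold was 1.42 without the 3 short-biased libraries (adjusted p = 0.203). With the brain score r was 0.85 (exact permutation p of 0.0222, or 0.08 after adjustment) and rho 0.893 (exact permutation p of 0.0123, or 0.0738 after adjustment), and r was 0.74 without the 2 farthest tumours. Within lines r was 0.851 (exact permutation p of 0.111, or 0.286 after adjustment). Against the fibroblast and meninges score r was 0.873 (exact permutation p of 0.0145, or 0.0579 after adjustment), rho 0.714 (exact permutation p of 0.0881, or 0.264 after adjustment) and r without the 2 farthest tumours 0.827. For that score r within lines was 0.88 (exact permutation p of 0.167, or 0.325 after adjustment). Usp29, a deubiquitinase gene transcribed from the same control region, was at 1.74, 1.18, 6.47 and 6.38 CPM across GSC1, against 3.25, 8.13 and 4.46 CPM across GSC2. It followed Peg3 (r = 0.92 with an exact permutation p of 0.00456 and 0.0429 after adjustment, rho = 0.893 with an exact permutation p of 0.0123 and 0.0738 after adjustment, and r = 0.886 without the 2 farthest tumours).

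**Figure D4:**
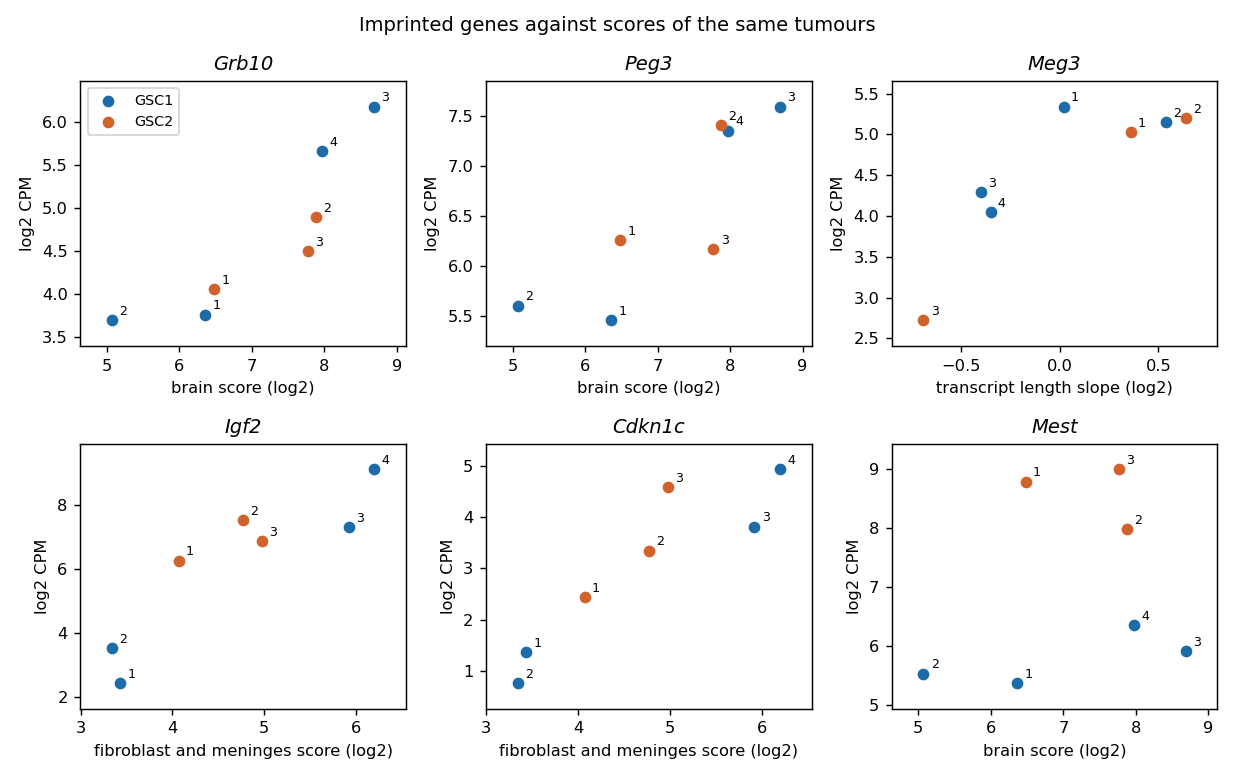
Log2 CPM of 6 genes (vertical axes) against scores of the same tumours in log2 units (horizontal axes), with replicate numbers, blue for GSC1 and orange for GSC2. Grb10 rises with the brain score in all 7 tumours, whereas every GSC2 tumour lies above every GSC1 tumour in Mest.

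Dlk1 encodes a membrane protein with EGF-like repeats that is expressed from the paternal copy and keeps precursor cells undifferentiated. Its level was 20.6, 33.2, 13.9 and 71.0 CPM for GSC1, with GSC2 at 10.6, 23.1 and 20.3 CPM. Only GSC1 replicates 2 and 4 exceeded all GSC2 tumours (log2 fold change -0.95, SE 0.59, unadjusted p = 0.152 in edgeR). The fold was negative in all 17 alternatives, between -1.24 and -0.32, and passed in none. Without GSC1 replicate 4 it was -0.35.

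Meg3, the maternally expressed long noncoding RNA of the same cluster on chromosome 12, was at 40.4, 35.4, 19.5 and 16.5 CPM across GSC1, against 32.5, 36.7 and 6.51 CPM across GSC2. The 3 short-biased libraries, also lowest in the mitosis score, were the 3 lowest. The longest Meg3 transcript has 14548 bases, and Meg3 moved with the length slope (r = 0.851 with an exact permutation p of 0.0101 and 0.0455 after adjustment, rho = 0.75 with an exact permutation p of 0.0663 and 0.239 after adjustment, and r = 0.794 without the 2 farthest tumours). Within lines r was 0.922 (exact permutation p of 0.0417, or 0.194 after adjustment). Between the lines the log2 fold change was -0.15 (SE 0.60).

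The relation of Dlk1 to Meg3 did not pass (r = -0.126 with an exact permutation p of 0.762 and 0.877 after adjustment, rho = 0.107 with an exact permutation p of 0.84 and 0.96 after adjustment, and r = 0.361 without the 2 farthest tumours). The count of Dlk1 over that of Meg3 was above 1 in GSC1 replicate 4 (4.32) and GSC2 replicate 3 (3.12) and between 0.325 and 0.939 in the other 5. Rtl1, a paternally expressed retrotransposon-derived gene of this cluster, was at 4.34, 5.66, 0.556 and 1.52 CPM for GSC1, with GSC2 at 2.19, 2.21 and 0.551 CPM. Its lowest tumours were again the 3 short-biased libraries, also lowest in the mitosis score (log2 fold change -0.87, SE 0.87).

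Plagl1, a paternally expressed zinc finger gene that can arrest the cell cycle and regulates other imprinted genes, was the least variable of the 10. It was at 15.6, 24.1, 16 and 21.2 CPM across GSC1, against 39.9, 21.4 and 16.3 CPM across GSC2. GSC2 replicate 1 alone stood above the other tumours. The log2 fold change was 0.43 (SE 0.36), and -0.03 without GSC2 replicate 1. Over the 10 genes the median log2 range between the highest and the lowest tumour was 2.68, beside 1.5 over all genes tested.

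Levels can be compared between genes per length, as CPM per kilobase of the longest transcript. In GSC2 Mest was the highest of the 10 in all 3 tumours, at 151 ± 50.2 CPM per kilobase (SD, n = 3), and did not overlap with the next, Igf2, at 26.5 ± 11.4. In GSC1 the highest gene was Igf2 in 2 tumours, H19 in 1 and Mest in 1. There the means were 38.3 ± 54.1 for Igf2, 24.7 ± 9.18 for H19 and 21.5 ± 6.78 for Mest (SD, n = 4), and these 3 overlapped. Peg3, with 12.9 ± 8.85 in GSC1 and 12.2 ± 6.32 in GSC2, stood between higher and lower genes in both lines. Meg3 was lowest in both, at 1.92 ± 0.808 in GSC1 and 1.74 ± 1.12 in GSC2. All other neighbours in either order overlapped, except Plagl1 and Meg3 in GSC1. The last rank of Meg3 depends on the length used. In CPM its means were 27.9 in GSC1 and 25.2 in GSC2, above those of Cdkn1c at 12.1 and 13.1.

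Of 66 other imprinted genes listed, 58 were in the tables and 50 were tested. None passed edgeR's test over all genes, 2 had an unadjusted p under 0.05 (4.21% of all genes tested did), 15 folds were positive and 35 negative, and the median fold was -0.21. Values did not overlap between the lines for 2 of the 50, Peg12 and Osbpl5, a share no higher than the 5.58% over all genes tested. Peg12, a paternally expressed gene of the Prader-Willi cluster, was at 7.12, 9.51, 2.82 and 2.14 CPM for GSC1, with GSC2 at 28.6, 9.74 and 19.4 CPM (1.83 on the log2 scale, SE 0.61, edgeR unadjusted p = 0.019, adjusted p = 0.981). Osbpl5, an oxysterol-binding protein gene, was at 33.65, 40.4, 41.9 and 37.2 CPM across GSC1, against 25, 33.64 and 20.9 CPM across GSC2 (-0.53, SE 0.24). Once the brain score entered the fit, where 0.822% of all genes passed, 2 of the 50 passed, Peg12 and Th.

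Th, the tyrosine hydroxylase gene near Igf2, was at 0.985, 0.661, 29.5 and 12.8 CPM for GSC1, with GSC2 at 0.356, 0.701 and 0.301 CPM (log2 fold change -4.57, SE 1.49, unadjusted p = 0.0169). Kcnk9, a potassium channel gene, was at 0.985, 0.735, 10.3 and 6.52 CPM across GSC1, against 0.661, 2.10 and 0.651 CPM across GSC2. Both were high in GSC1 replicates 3 and 4 alone, the tumours highest in the brain score, the fibroblast and meninges score and Grb10. Of the 28 genes listed as neighbours of the 10 in their clusters, 23 were in the tables and 19 were tested, with 7 positive folds, 12 negative and a median of -0.21. DESeq2 called 1 of them, Th, where it called 1.2% of all genes.

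The IGF and insulin axis carries the signal of Igf2 and is the target of Grb10. Of 23 genes listed all were in the tables and 20 were tested, with 12 positive and 8 negative folds and a median of 0.07. None passed, and 2 had an unadjusted p under 0.05, beside 4.21% of all genes. Pappa, a protease that frees IGF from binding proteins, was at 0.492, 1.47, 1.71 and 0.428 CPM for GSC1, with GSC2 at 3.71, 4.52 and 2.05 CPM (1.74 on the log2 scale, SE 0.63, edgeR unadjusted p = 0.0265). It was the 1 gene of the 20 whose values did not overlap, near the 5.58% over all genes. Igfbp6, a binding protein with a preference for IGF2, was at 9.35, 2.98, 12.6 and 30.1 CPM across GSC1, against 1.17, 3.82 and 4.16 CPM across GSC2 (-2.17, SE 0.83, unadjusted p = 0.0323).

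Igf1r, Igf2r and Igf1 overlapped between the lines. Igf1r, the receptor gene, was at 44.1, 78.7, 13 and 21.4 CPM for GSC1, with GSC2 at 71.0, 63.2 and 31.7 CPM. Igf2r, an imprinted gene whose receptor removes IGF2, was at 111, 216, 27.6 and 45.2 CPM across GSC1, against 129.5, 119 and 66.9 CPM across GSC2. For both, whose longest transcripts have 11409 and 8887 bases, the 3 lowest tumours were the short-biased libraries, also lowest in the mitosis score. Igf1 was at 4.08, 1.58, 43.2 and 19.6 CPM for GSC1, with GSC2 at 3.15, 5.26 and 5.41 CPM (log2 fold change -1.89, SE 1.05).

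Genes with a pattern most like that of single genes among the 10 were sought by the root mean square difference of standardized log2 CPM over the 7 tumours, among 11935 genes. For Mest they were Fkbp10, a collagen-folding chaperone gene (difference 0.158 SD), and Srebf1, a regulator of lipid synthesis (0.188). For Peg10 they were Rab11fip2 (0.121) and Gli2 (0.148). For Dlk1 the closest, Shf, differed by 0.282. Igf2 was closest to Epn3 (0.122) and Abca4 (0.139), Cdkn1c to Pcca (0.085) and Pltp (0.0971), and Grb10 to Frs3 (0.0901) and Terf2ip (0.091). Standardizing removes the size of a change, and no reference for these differences was computed. Srebf1 was at 130, 147, 140 and 146 CPM across GSC1, against 218, 194 and 246 CPM across GSC2, a narrower range than that of Mest.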

How the data were processed

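The authors deposited a table of raw read counts by Ensembl gene for each tumour. Per the submitters' processing notes the tools were TopHat2 2.0.11 and HTSeq, and the builds mm9 and dm3 are named without a role. HTSeq's version, mode and strand setting were not given in the sources used here, and no coordinates of the tables were used. The 5 summary lines per table were left out: 6.19 to 14.2% of reads lay on no gene and 12.8 to 21.0% had no unique position. Symbols and lengths (longest transcript) came from GENCODE M21, for 32897 of 37620 identifiers, and promoter windows from RefSeq GRCm38.p6. No 2 libraries agreed within sampling noise (smallest chi-square over its degrees of freedom 66.5).

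The deposited counts went into edgeR 4.0.16 under R 4.3.3 (TMM, filterByExpr, robust quasi-likelihood fit, Benjamini-Hochberg adjustment over 16068 genes, threshold 0.05), and SE is the fold over the square root of F. Log2 CPM has a prior count of 2. DESeq2 1.42.0 and limma 3.58.1 were alternatives. Permutation tests ran in Python 3.11.15. The p-values between the lines set the difference against the spread of tumours within lines. They carry no information on how lines of the same genotype vary. On simulated counts for 16068 genes the test of GSC2 against GSC1 found 0% of 50 genes simulated at 2-fold, 26% at 4-fold, 76% at 8-fold and 92% at 16-fold, and made 7 false calls. The 10 genes, the lists and the tests were chosen with earlier results of these data known. Named were all 10 genes, up to 4 genes per other list by smallest p, cluster neighbours at a mean of at least 1 CPM, and the 2 genes most like each of the 10, of which some are not reported here. Igf1r, Igf2r, Dnmt1, Lin28a, Dbh, Slc18a2, Folr1, Kcne2 and Slc4a5 fall outside this rule and were chosen after their values were seen. Hmga1 and Hmga2 are named only as members of their list. Kcnq1ot1 and Rian were not analysed here.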

Additional observations from a re-analysis of the deposited data

How the results depend on the processing

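The alternatives were other scaling factors, no filter or a mean of at least 5 CPM, DESeq2, limma-voom, a replicate block, the brain score as a covariate, a length offset, no short-biased libraries and each tumour left out. Of the 10 genes 3 passed in DESeq2, 1 with the brain score as a covariate, 1 without the 3 short-biased libraries and 0 in all other fits. Over all genes 0 passed in the fit of 7 tumours, 1 without a filter, 192 in DESeq2, 1 in limma-voom, 132 with the covariate, 55 without the short-biased libraries and 0 in each fit without 1 tumour. Without the short-biased libraries, 2 tumours against 2, the values of 7 of the 10 genes did not overlap, where 46.7% of all genes did not.

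Mest, Peg10, H19 and Dlk1 kept their direction throughout. In limma-voom the log2 fold change of Peg3 was 0.12 and that of Igf2 1.38. With the brain score it was 0.08 for Igf2 and 0.03 for Meg3. Without the short-biased libraries it was 1.42 for Peg3, 3.97 for Igf2 and 0.81 for Grb10. With 1 tumour left out it ran from -0.59 to 0.28 for Peg3, -0.93 to 1.10 for Igf2, -0.52 to 0.31 for Meg3, -0.64 to 1.10 for Cdkn1c and -0.03 to 0.66 for Plagl1. The cause of these reversals was not tested. The replicate block gave 0.44 for Peg3, 2.69 for Igf2, 2.98 for Mest and 0 genes called. Deviations of same-numbered tumours correlated at 0.583, -0.306 and 0.409, and those of GSC2 replicate 1 and GSC1 replicate 2 at 0.699. These values cover all genes tested and cannot show whether same-numbered tumours were handled together. In the simulation edgeR's test found 0% of genes changed 2-fold.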

Other observations

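Of 13 listed genes that maintain imprints or DNA methylation, 10 were tested, with 6 positive and 4 negative folds and a median of 0.04. None was past edgeR's adjusted threshold and 1 was at an unadjusted p under 0.05, where 4.21% of all genes tested were. That gene was Zfp57, the zinc finger gene whose hexamer was marked in the promoter windows, at 7.44, 8.67, 3.97 and 1.95 CPM for GSC1, with GSC2 at 1.68, 1.09 and 1.25 CPM. Its values did not overlap (-2.04 on the log2 scale, SE 0.59, edgeR unadjusted p = 0.00954, adjusted p = 0.813), where 5.58% of all genes tested did not. DESeq2 called it, where it called 1.2% of all genes. GSC1 replicate 4 was close to the GSC2 tumours. Dnmt1, the maintenance DNA methyltransferase gene, was at 297, 421, 45.2 and 71.4 CPM across GSC1, against 332, 202 and 76.2 CPM across GSC2. It was lowest in the 3 short-biased libraries, which were also the 3 lowest in the mitosis score.

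Relatives of Cdkn1c, Plagl1, Dlk1 and Peg10, with the growth regulators Hmga1, Hmga2, Lin28a and Lin28b, had 12 of 14 genes tested, with 5 positive and 7 negative folds, a median of -0.08 and none at an unadjusted p under 0.05. Lin28a had a count of 0 in all 7 tumours. Plag1, a zinc finger gene related to Plagl1 that can activate Igf2, was at 2.75, 9.33, 1.39 and 1.24 CPM for GSC1, with GSC2 at 16.3, 7.15 and 2.80 CPM. Dlk2 was at 2.98, 0.735, 5.6 and 2.05 CPM across GSC1, against 4.07, 5.57 and 6.86 CPM across GSC2. Cdkn1b, the gene for the inhibitor p27, was at 83.9, 95.2, 78.6 and 89.3 CPM for GSC1, with GSC2 at 141, 94.0 and 89.3 CPM.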
